A study of Mus musculus with 7 samples.

Results

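The genes described here are the motor proteins of the cytoskeleton in RNA from mouse midbrain, compared between ribosome-bound RNA captured from one genetically marked set of cells and the RNA left behind. They were chosen by symbol: all kinesins (Kif), the numbered myosin heavy chains (Myo and Myh), the cytoplasmic dynein subunits (Dync) and the axonemal dynein heavy chains (Dnah). Myh11, the smooth muscle myosin, was left out of the rule and stands on the mural cell marker list. The rule found 100 of the 32531 gene symbols in the files, namely 42 kinesins, 38 myosins, 7 cytoplasmic dynein subunits and 13 axonemal dyneins.

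All libraries came from the midbrain of control mice of the line Stard8-TRAP ES2342, which had received no treatment. The line carries the ribosomal protein Rpl10a fused to EGFP under Stard8 regulatory sequence, so the tagged cells are those in which that sequence is active. In translating ribosome affinity purification (TRAP), antibodies against EGFP on magnetic beads pull tagged ribosomes and their RNA out of the homogenate. The immunopurified group (IP) had 3 libraries, numbered 1, 2 and 4, and the group of RNA that stayed off the beads (unbound) had 4, numbered 1 to 4. The tag and the line were common to both groups, and the labels do not say whether libraries came from separate animals, so p-values measure only the spread between these libraries. The index read ACAGTG in IP 1, IP 2, unbound 1 and unbound 2 and GTGAAA in the other libraries. IP libraries ran on sequencing lanes 2 and 5 and unbound libraries on lanes 1 and 3, so lane and group cannot be told apart. IP library number 3 was not analysed here.

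Kinesins walk along microtubules, most of them towards the plus end, and in neurons they carry vesicles, mitochondria and RNA down axons and dendrites. Cytoplasmic dynein carries cargo the other way, while axonemal dyneins bend motile cilia such as those of the ependymal cells that line the ventricles. Myosins pull on actin: class II forms contractile filaments, class I links membrane to actin, and class V moves vesicles.

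Each library held 52052340 to 76114634 reads in genes. Levels below are in CPM, the read count scaled to a common library total after TMM scaling, and 3 reads amounted to 0.0376 to 0.059 CPM, which covers counting error only. Stard8, the gene whose sequence drives the tag, had 227 to 440 CPM in IP and 3.51 to 4.89 CPM in unbound (log2 fold change 6.38 ± 0.31, adjusted p = 6.67e-07). Of all genes tested, 20.5% were higher and 18.9% lower in IP at an adjusted p under 0.05. Among the marker lists, all 12 endothelial, all 12 pericyte and smooth muscle and all 12 microglia and macrophage genes were higher in IP. Their summed levels were 2048 to 2587, 3998 to 5682 and 1459 to 1530 CPM in IP, against 16.6 to 23.4, 30.7 to 50.2 and 46.3 to 82.3 CPM in unbound. Of 10 astrocyte markers, 6 were higher and 0 lower, with sums of 3209 to 3710 CPM in IP and 1675 to 2743 CPM in unbound. All 12 pan-neuronal markers were lower, with sums of 3669, 4011 and 8143 CPM in IP 1, 2 and 4 and of 14061 to 22138 CPM in unbound, although the series title speaks of neurons. All 10 oligodendrocyte markers were lower too, at 906 to 1703 CPM in IP and 5388 to 7378 CPM in unbound, as were the 3 tested erythroid markers, at 2.11 to 4.71 CPM in IP and 13.1 to 64.4 CPM in unbound. None of these markers was at 0 in every library of a group. The part of these cell types in the motor results below was not tested. IP and unbound are fractions of homogenate separated by the tag, so their difference is no measure of cell number. How many cells of a type carried the tag and how much RNA each gave cannot be told apart.

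Promoters are shown for a pair of kinesins and a pair of nonmuscle myosins that moved in opposite directions, and for Myo1e, whose window held the element bound by serum response factor. Each runs from 250 bases before the annotated start to 50 bases into the gene, 5′ to 3′ on the gene's strand, from RefSeq on build GRCm38.p6. Capitals mark a match to a CArG box, to the TATA box (TATAAA) or to the E box (CAGCTG), searched on both strands. A CArG box may itself contain TATAAA.
Kif1c: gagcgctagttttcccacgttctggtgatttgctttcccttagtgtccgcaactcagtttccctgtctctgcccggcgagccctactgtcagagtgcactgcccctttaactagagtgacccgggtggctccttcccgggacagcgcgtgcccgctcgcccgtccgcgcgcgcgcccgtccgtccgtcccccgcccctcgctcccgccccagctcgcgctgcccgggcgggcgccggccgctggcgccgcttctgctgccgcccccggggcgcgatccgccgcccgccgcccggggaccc
Kif1a: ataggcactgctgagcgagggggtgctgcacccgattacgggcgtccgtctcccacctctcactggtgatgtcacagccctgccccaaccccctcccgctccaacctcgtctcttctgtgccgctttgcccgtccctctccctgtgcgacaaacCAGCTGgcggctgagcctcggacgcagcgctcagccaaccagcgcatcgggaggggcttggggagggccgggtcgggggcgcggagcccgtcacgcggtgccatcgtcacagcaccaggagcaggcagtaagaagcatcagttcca
Myh9: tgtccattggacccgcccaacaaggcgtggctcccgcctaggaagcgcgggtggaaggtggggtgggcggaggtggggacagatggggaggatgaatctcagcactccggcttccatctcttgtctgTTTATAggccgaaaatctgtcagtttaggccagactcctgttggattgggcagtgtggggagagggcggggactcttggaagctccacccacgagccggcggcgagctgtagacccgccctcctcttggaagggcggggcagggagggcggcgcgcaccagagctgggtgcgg
Myh14: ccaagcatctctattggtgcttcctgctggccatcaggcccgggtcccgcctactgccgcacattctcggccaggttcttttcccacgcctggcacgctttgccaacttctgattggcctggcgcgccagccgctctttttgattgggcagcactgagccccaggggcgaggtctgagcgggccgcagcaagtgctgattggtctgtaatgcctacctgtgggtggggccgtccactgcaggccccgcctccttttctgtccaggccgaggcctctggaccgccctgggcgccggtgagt
Myo1e: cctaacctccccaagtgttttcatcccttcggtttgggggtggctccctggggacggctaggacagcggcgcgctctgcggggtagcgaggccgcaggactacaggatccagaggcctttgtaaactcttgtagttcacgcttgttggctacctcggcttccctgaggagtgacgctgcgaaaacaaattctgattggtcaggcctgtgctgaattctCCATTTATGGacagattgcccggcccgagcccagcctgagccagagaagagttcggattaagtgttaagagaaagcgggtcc
The Kif1c window (chr11:70700298-70700597, plus strand) had 73.3% GC, 41 CpG and no match. For Kif1a (chr1:93101825-93102124, minus strand, the first of its listed starts), GC was 67.0% with 24 CpG, and an E box began 96 bases before the start. The Myh9 window (chr15:77842126-77842425, minus strand) had 64.7% GC, 19 CpG and a TATAAA on the opposite strand 123 bases before the start. Myh14 (chr7:44670794-44671093, minus strand) had the same GC share, 18 CpG and no match. Myo1e (chr9:70207100-70207399, plus strand) had 56.7% GC, 16 CpG and a CArG box 32 bases before the start. The RefSeq table held 84 of the 100 motor genes. A CArG box was present in 4 of them (Kif20b, Myh13, Myh4 and Myo1e) and in 1.63% of all 32851 promoters of this length, TATAAA in 15 and 13.6%, and CAGCTG in 13 and 16.3%. The numbers for motors count genes and the percentages count promoters, of which a gene can have several, so they are unlike measures. A match here is a description of the letters only.

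Of the 100 motor genes, 88 had enough reads to be tested, and 14 of these were higher and 23 lower in IP at an adjusted p under 0.05 (edgeR quasi-likelihood test, adjusted over 17654 genes). The share called, 42.0%, lay near the 39.4% called among all genes tested, and a share so near the background is no result about motors. By direction, 15.9% of motors were higher and 26.1% lower, against 20.5% and 18.9% of all genes. The median log2 fold change was -0.26 for motors and -0.10 for all genes. In 20 motors every IP library lay above every unbound library, and in 21 every IP library lay below, against 25.1% and 22.7% of all genes tested. Those that rose were 6 class I myosins, Myh9, Myo10 and 6 kinesins, and those that fell were 11 kinesins, 4 myosins, 3 cytoplasmic and 5 axonemal dyneins. Within the index ACAGTG, 11 motors were higher and 9 lower, and within GTGAAA 14 were higher and 21 lower, where the lone IP library is assumed to vary like the unbound ones. The number lower was 10 without IP 1, 9 without IP 2, 14 without unbound 3 and 15 without unbound 4. Over all genes the number lower was 3328, and it was 1899 without IP 1 and 1751 without IP 2. The 12 motors not tested had 0 to 158 reads over all 7 libraries. They were Kif2b, Kif12, Kif2c, the pseudogene Kif4-ps, Myh1, Myh3, Myh4, Myh13, Myo7b, Myo15b, Dnah12 and Dnah14.

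**Figure D1:**
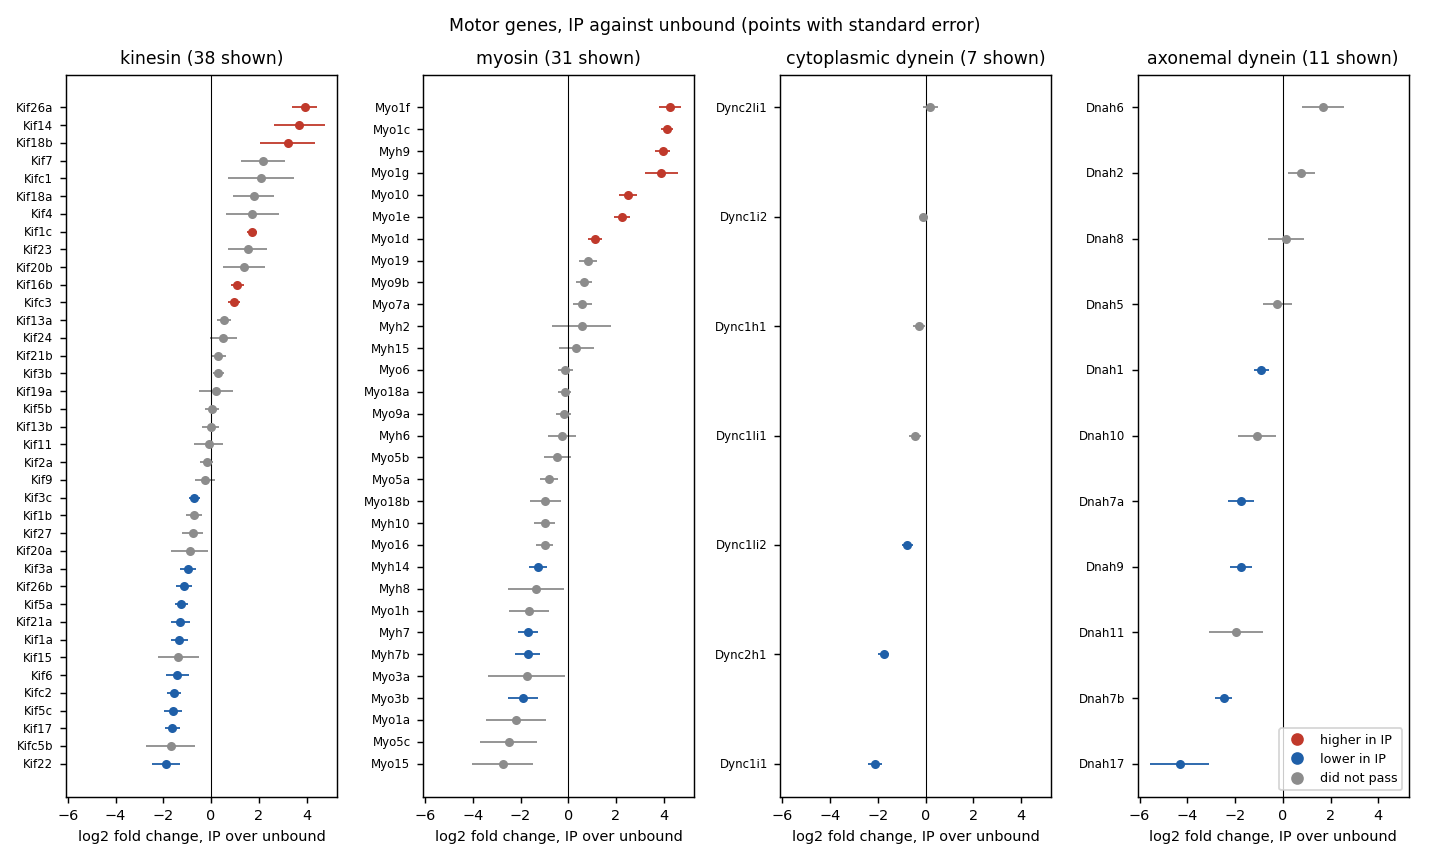
Log2 fold change, IP over unbound, of 87 tested motor genes (points, with the standard error as bars), in 4 panels by family. Red marks genes higher in IP, blue genes lower and grey genes that missed the threshold; the 4 uppermost myosins lie near 4, and no dynein subunit is red. The fitted value for Dnah17, at 0 to 2 reads per IP library, depends on the model's prior count.

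Among kinesins, 6 of 38 tested (15.8%, beside 20.5% of all genes tested) were higher in IP and 11 (28.9%, beside 18.9%) lower. The median log2 fold change was -0.06. The number lower was 5 without IP 1 or without IP 2, 7 without unbound 1 and 6 without unbound 4, and the number higher was 3 without IP 2. The kinesin-1 heavy chains, the conventional motors of axonal transport, include Kif5a and Kif5c, which fell, and Kif5b, which did not pass. Kif5a, a neuronal form (chr10:127225696-127263348, GRCm38), had 434, 458 and 591 CPM in IP 1, 2 and 4, against 1274, 822, 1332 and 1250.1 CPM in unbound 1 to 4. Kif5c, also neuronal, had 117, 137 and 279.7 CPM in IP 1, 2 and 4, against 578, 316, 606 and 665 CPM in unbound 1 to 4. In both genes all IP libraries lay below all unbound libraries. The log2 fold changes were -1.24 ± 0.27, adjusted p = 0.00455 for Kif5a and -1.60 ± 0.38, adjusted p = 0.00675 for Kif5c. Kif5b, the form made in most tissues, had 238, 273 and 298 CPM in IP 1, 2 and 4, against 222, 166, 329 and 330.0 CPM in unbound 1 to 4, and here the groups overlapped (log2 fold change 0.04 ± 0.28, adjusted p = 0.92). Per kilobase of exon, the ratio of Kif5b to Kif5a was 0.48, 0.522 and 0.441 in IP 1, 2 and 4, against 0.153, 0.177, 0.216 and 0.231 in unbound 1 to 4. The ratio of Kif5b to Kif5c was 1.82, 1.78 and 0.952 in IP 1, 2 and 4, against 0.343, 0.47, 0.486 and 0.444 in unbound 1 to 4. Both ratios were higher in every IP library than in every unbound one. The paralog pairs for such ratios were chosen after their values were seen, so the ratios are a description with no test. Pan-neuronal marker levels moved with this result, with IP 4 closest to the unbound libraries in both, and their part in it was not tested.

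Within kinesin-3, the class of fast vesicle carriers, Kif1c and Kif16b rose, Kif1a fell, and Kif1b, Kif13a and Kif13b did not pass. Kif1c (chr11:70700548-70731964), a broadly made motor that carries vesicles and integrins, had 129.5, 120.1 and 135 CPM in IP 1, 2 and 4, against 40.6, 36.8, 42.1 and 36.0 CPM in unbound 1 to 4. Its log2 fold change was 1.72 ± 0.19, adjusted p = 7e-05. Kif1a (chr1:93015464-93101951), the carrier of synaptic vesicle precursors, had 252, 325 and 584 CPM in IP 1, 2 and 4, against 1236, 635, 981 and 1032 CPM in unbound 1 to 4. The groups did not overlap for either gene, and they moved in opposite directions (Kif1a -1.33 ± 0.35, adjusted p = 0.0123). The ratio of Kif1c to Kif1a per kilobase was 0.66, 0.473 and 0.296 in IP 1, 2 and 4, against 0.0421, 0.0743, 0.055 and 0.0448 in unbound 1 to 4. Kif1b, a carrier of mitochondria and synaptic vesicle precursors, had 370.1, 420.3 and 667 CPM in IP 1, 2 and 4, against 850.5, 453, 887 and 988 CPM in unbound 1 to 4. Its groups overlapped (log2 fold change -0.71 ± 0.33, adjusted p = 0.111). Kif16b, which moves early endosomes, had 38.7, 48.6 and 30.0 CPM in IP 1, 2 and 4, against 12.6, 16.9, 20.3 and 23.5 CPM in unbound 1 to 4 and a log2 fold change of 1.09 ± 0.28, adjusted p = 0.00974. Kif13a and Kif13b had log2 fold changes of 0.55, adjusted p = 0.165 and -0.02, adjusted p = 0.971. The call did not hold for Kif1a without IP 1 or IP 2 (adjusted p 0.0615 to 0.0693) and Kif16b without IP 2 (adjusted p 0.0598). Kif1b passed without unbound 2 (-0.91, adjusted p = 0.0152) or without IP 4 (adjusted p = 0.0448).

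Kinesin-2 motors, which serve intraflagellar and dendritic transport, went down or stayed short of the threshold. Kif17, a dendritic carrier of NMDA receptor subunits, had 2.95, 5.73 and 3.77 CPM in IP 1, 2 and 4, against 14.6, 14.1, 11.7 and 10.5 CPM in unbound 1 to 4. Every IP library was below every unbound one (log2 fold change -1.62 ± 0.33, adjusted p = 0.00336). Kif3a and Kif3c fell as well (-0.97 ± 0.35, adjusted p = 0.0468 and -0.69 ± 0.25, adjusted p = 0.0474), and 40.7% of the exon bases of Kif3c overlap another gene. Kif3b, the partner of Kif3a in the heterotrimer, had 0.30, adjusted p = 0.335. The threshold was missed for Kif3a without IP 1, IP 2, unbound 1, unbound 3 or unbound 4 (adjusted p 0.0579 to 0.187) and Kif3c without IP 1, IP 2, unbound 1, unbound 3 or unbound 4 (adjusted p 0.0756 to 0.201).

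Of the minus-end kinesins of class 14, Kifc2 fell, Kifc3 rose, and Kifc1 and Kifc5b did not pass. Kifc2, found mainly in neurons, had 42.8, 38.8 and 74.7 CPM in IP 1, 2 and 4, against 163, 164, 158 and 125 CPM in unbound 1 to 4 (log2 fold change -1.55 ± 0.28, adjusted p = 0.00155). Kifc3, a motor linked to adherens junctions, had 36.0, 43.4 and 28.5 CPM in IP 1, 2 and 4, against 22.5, 13.6, 20.9 and 17.2 CPM in unbound 1 to 4 (log2 fold change 0.95 ± 0.26, adjusted p = 0.0137), with 27.5% of its exon bases overlapping other genes. The groups did not overlap in either gene. Kif26a, an atypical kinesin that binds microtubules without moving along them, showed the highest kinesin fold change. It had 32.0, 31.3 and 26.2 CPM in IP 1, 2 and 4, against 4.12, 0.653, 1.37 and 1.64 CPM in unbound 1 to 4, so that the lowest IP library stood well above the highest unbound one (log2 fold change 3.93 ± 0.52, adjusted p = 0.000225). Its paralog Kif26b fell (-1.13 ± 0.35, adjusted p = 0.0246), as did Kif21a, which restrains microtubule growth (-1.28 ± 0.39, adjusted p = 0.0224), and Kif6 (-1.41 ± 0.48, adjusted p = 0.0383). Kif21b did not pass (0.31, adjusted p = 0.461), nor did Kif7, a ciliary regulator of Hedgehog signalling (2.19, adjusted p = 0.0827), or the microtubule depolymerase Kif2a (-0.19, adjusted p = 0.594). At least 20% of the exon bases of Kif7 overlap other genes. The remaining tested kinesins outside the mitotic class, with log2 fold changes in parentheses, were Kif19a (0.22), Kif24 (0.51), Kif27 (-0.77), Kif9 (-0.26) and Kifc5b (-1.69), and none passed. With 1 library left out, the adjusted p exceeded 0.05 for Kifc3 without IP 2 (adjusted p 0.0776), Kif26b without IP 1, IP 4 or unbound 4 (adjusted p 0.0595 to 0.109), Kif21a without IP 1, IP 2, unbound 3 or unbound 4 (adjusted p 0.0541 to 0.105) and Kif6 without IP 2, IP 4, unbound 1, unbound 2 or unbound 4 (adjusted p 0.0516 to 0.129).

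Of 11 tested mitotic kinesins, which build the spindle and complete division, 2 (18.2%) were higher, 1 (9.09%) lower and 8 not called. Of all genes tested, 20.5% were higher and 18.9% lower. The mitotic kinesins had a median log2 fold change of 1.53 at low levels. Kif14, a cytokinesis motor, had 0.76, 0.331 and 2.1 CPM in IP 1, 2 and 4, against 0.0376, 0.0172, 0.0759 and 0.194 CPM in unbound 1 to 4 (log2 fold change 3.69 ± 1.06, adjusted p = 0.0183). Kif18b, which shortens astral microtubules, had 0.267, 0.314 and 0.393 CPM in IP 1, 2 and 4, against 0.0125, 0.0344, 0 and 0.0882 CPM in unbound 1 to 4, and its adjusted p of 0.04998 sat at the threshold. Unbound values of both genes include libraries at or under 3 reads. The chromosome-binding Kif22 had 1.24, 0.505 and 2.08 CPM in IP 1, 2 and 4, against 6.92, 5.48, 3.8 and 2.49 CPM in unbound 1 to 4 (log2 fold change -1.87 ± 0.59, adjusted p = 0.0272). In 4 of the 11, including Kif14, Kif18b and Kif18a, every IP library lay above every unbound one, and for Kif22 all lay below. Among all genes tested, 25.1% lay above and 22.7% below in this way. Kif18a, which did not pass, had 1.55 to 2.32 CPM in IP and 0.0376 to 1.02 CPM in unbound. Kifc1 and Kifc5b, and Kif4 and Kif4-ps, are near-identical pairs whose reads may be split or lost, so their values are uncertain. The 8 that did not pass, with log2 fold changes in parentheses, were Kif11 (-0.10), Kif15 (-1.37), Kif18a (1.79), Kif20a (-0.89), Kif20b (1.38), Kif23 (1.53), Kif4 (1.73) and Kifc1 (2.09). For Kif20a, at least 20% of the exon bases overlap other genes. Proliferation markers were higher in 6 of 10 cases and lower in 0, with sums of 64.0 to 77.4 CPM in IP and 21.4 to 42.1 CPM in unbound, and their part in these values was not tested. The call did not hold for Kif14 without IP 4 (adjusted p 0.103), Kif18b without IP 1, IP 2, IP 4, unbound 1, unbound 2 or unbound 3 (adjusted p 0.0698 to 0.125) and Kif22 without IP 1, IP 2 or unbound 1 (adjusted p 0.0546 to 0.0988).

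Among myosins, 8 of 32 tested (25.0%, beside 20.5% of all genes tested) were higher in IP and 4 (12.5%, beside 18.9%) lower. The median log2 fold change was -0.23. The number lower was 1 without IP 1, IP 2 or unbound 3, and 10 without IP 4. The class I myosins, single-headed motors that tie membranes to actin, held 6 of the 8: of the 8 class members, 6 (75.0%) were higher and 0 lower, with a median of 3.08, beside 20.5% of all genes tested. Myo1c (chr11:75650504-75673910), known for moving glucose transporter vesicles and for hearing, had 150.4, 165 and 126 CPM in IP 1, 2 and 4, against 7.64, 6.6, 10.6 and 8.88 CPM in unbound 1 to 4. Myo1f, made mainly in blood-derived cells, had 20.5, 19.3 and 16.3 CPM in IP 1, 2 and 4, against 0.827, 0.412, 0.797 and 1.87 CPM in unbound 1 to 4. In both genes the groups were far apart, with log2 fold changes of 4.13 ± 0.25, adjusted p = 1.43e-06 for Myo1c and 4.26 ± 0.48, adjusted p = 6.65e-05 for Myo1f. Myo1g, another myosin of blood-derived cells, averaged 2.48 ± 0.941 CPM in IP and 0.164 ± 0.0787 CPM in unbound (3.90 ± 0.69, adjusted p = 0.00143). Myo1e, which acts in endocytosis and in kidney podocytes, had 60.5, 62.5 and 42.9 CPM in IP 1, 2 and 4, against 10.9, 5.77, 14.4 and 15.0 CPM in unbound 1 to 4 (2.26 ± 0.33, adjusted p = 0.000406). Myo1d rose to 71.2, 77.2 and 69.4 CPM in IP 1, 2 and 4, against 23.8, 19.7, 47.4 and 42.6 CPM in unbound 1 to 4 (1.12 ± 0.31, adjusted p = 0.0154). The intestinal Myo1a (-2.18, adjusted p = 0.191) and Myo1h (-1.66, adjusted p = 0.138), had negative fold changes that missed the threshold, and 25.8% of the exon bases of Myo1h overlap other genes. Endothelial, mural and microglial marker sums, given above, were higher in every IP library than in every unbound one, and their part in the class I values was not tested. The threshold was missed for Myo1d without IP 2 (adjusted p 0.0556).

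**Figure D2:**
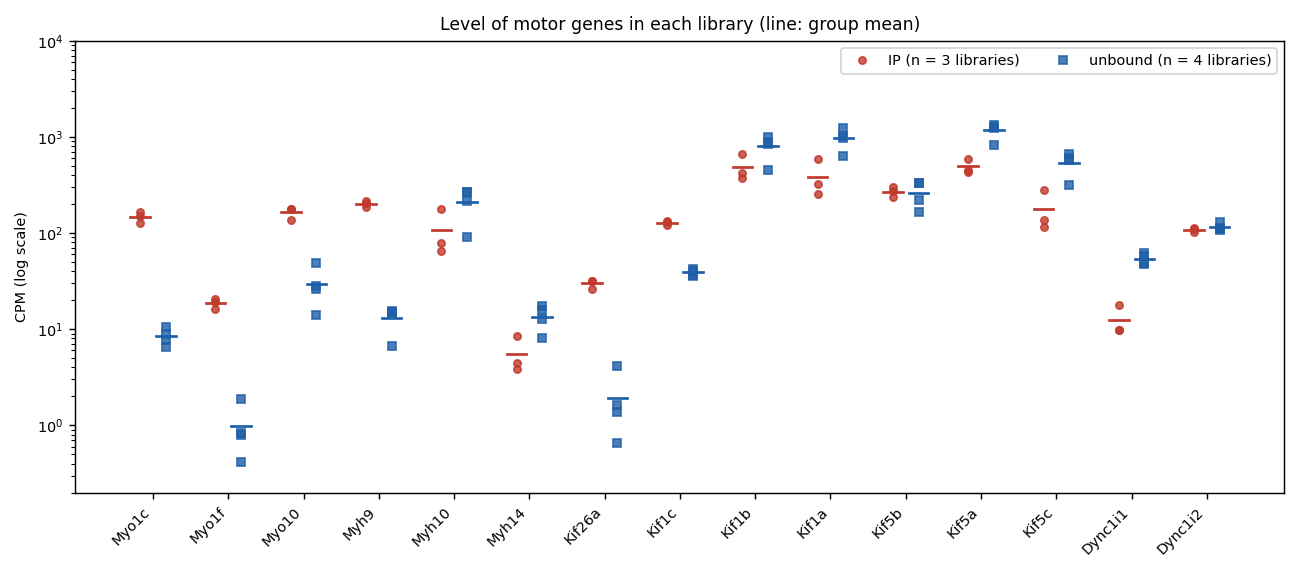
CPM on a log axis of 15 motor genes in each library, with IP libraries (red circles) left of unbound libraries (blue squares) and a line at each group mean. IP values of Myo1c, Myo1f, Myh9 and Kif26a stand clear above the unbound values, those of Kif5a, Kif5c, Kif1a and Dync1i1 lie below, and those of Kif5b and Dync1i2 overlap.

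Nonmuscle myosin II, the contractile motor of the cell cortex, has 3 heavy chains, of which Myh9 rose, Myh14 fell and Myh10 did not pass. Myh9 (chr15:77760587-77842175), the heavy chain of myosin IIA, had 204, 185 and 216 CPM in IP 1, 2 and 4, against 15.0, 6.75, 14.8 and 15.3 CPM in unbound 1 to 4. Myh14 (chr7:44605803-44670843), that of myosin IIC, had 3.9, 4.46 and 8.39 CPM in IP 1, 2 and 4, against 12.7, 8.01, 17.6 and 15.8 CPM in unbound 1 to 4. Myh10, the IIB chain, abundant in brain, had 64.4, 78.6 and 178 CPM in IP 1, 2 and 4, against 269, 91.3, 215 and 269 CPM in unbound 1 to 4. Myh9 was higher in every IP library (log2 fold change 3.96 ± 0.31, adjusted p = 5.81e-06), Myh14 was lower with a small overlap of the groups (-1.28 ± 0.39, adjusted p = 0.0235), and Myh10 overlapped and did not pass (-0.98 ± 0.44, adjusted p = 0.0982). Per kilobase, the ratio of Myh9 to Myh10 was 2.56, 1.9 and 0.982 in IP 1, 2 and 4, against 0.045, 0.0598, 0.0555 and 0.046 in unbound 1 to 4. With 1 library left out, the adjusted p exceeded 0.05 for Myh14 without IP 1, IP 2, unbound 3 or unbound 4 (adjusted p 0.0574 to 0.102). Myh10 passed without unbound 2 (-1.24, adjusted p = 0.0179) or without IP 4 (-1.56, adjusted p = 0.0202).

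The sarcomeric myosins were present at trace to low levels. Myh7, the slow muscle and cardiac chain, had 1.63, 1.08 and 1.69 CPM in IP 1, 2 and 4, against 4.42, 4.62, 4.95 and 4.89 CPM in unbound 1 to 4 (-1.69 ± 0.41, adjusted p = 0.00813), and 13.3% of its exon bases overlap another gene. Myh7b had 1.55, 1.73 and 5.05 CPM in IP 1, 2 and 4, against 5.05, 8.3, 13.2 and 9.67 CPM in unbound 1 to 4 (-1.71 ± 0.51, adjusted p = 0.0224). Both were lower in IP, and the lowest unbound value of Myh7b equalled the highest IP value at the digits shown. Of 8 tested striated muscle markers 1 was higher and 2 lower, beside 20.5% and 18.9% of all genes tested. Higher was Des, which mural cells also make, and lower were Ttn and Tnnt2, named after their values were seen. All 12 listed markers summed to 42.8 to 45.1 CPM in IP and 24.9 to 30.8 CPM in unbound. Des made up most of the IP sum, with 34.9, 34.2 and 30.3 CPM in IP 1, 2 and 4, against 0.671 to 3.71 CPM in unbound. Ttn had 0.334 to 2.28 CPM in IP and 8.93 to 14.2 CPM in unbound, and Tnnt2 had 2.18 to 4.44 and 7.57 to 8.63 CPM. Myh1, Myh2, Myh3, Myh4, Myh8 and Myh13 lie side by side on chromosome 11 with similar sequence, and their low counts are uncertain. The tested sarcomeric genes that missed the threshold, with log2 fold changes in parentheses, were Myh15 (0.34), Myh2 (0.55), Myh6 (-0.26) and Myh8 (-1.36). The call did not hold for Myh7b without IP 1, IP 2 or unbound 3 (adjusted p 0.0648 to 0.0985).

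Among the other unconventional myosins, Myo10, which builds filopodia, was the 1 that rose. It had 179, 178 and 137 CPM in IP 1, 2 and 4, against 48.8, 14, 26.1 and 27.8 CPM in unbound 1 to 4 (log2 fold change 2.50 ± 0.36, adjusted p = 0.000391), with every IP library above every unbound one. Myo3b, a hair-bundle myosin, fell (-1.92 ± 0.63, adjusted p = 0.0321). The vesicle motor Myo5a, the most abundant myosin of unbound RNA per kilobase, had 212, 254 and 493 CPM in IP 1, 2 and 4, against 743, 293, 534 and 649 CPM in unbound 1 to 4, overlapping between groups (-0.80 ± 0.38, adjusted p = 0.123). Myo5b (-0.47, adjusted p = 0.541) and Myo5c (-2.49, adjusted p = 0.122) did not pass either. The threshold was also missed by Myo6, the minus-end motor on actin (-0.13, adjusted p = 0.776), by Myo9a (-0.20, adjusted p = 0.635) and Myo9b (0.66, adjusted p = 0.133), and by Myo7a (0.59, adjusted p = 0.252), Myo16 (-0.99, adjusted p = 0.0524), Myo18a (-0.15, adjusted p = 0.678) and the mitochondrial Myo19 (0.81, adjusted p = 0.106). The same was true, with log2 fold changes in parentheses, of Myo15 (-2.76), Myo18b (-0.97) and Myo3a (-1.74). The threshold was missed for Myo3b without IP 1, IP 2 or unbound 3 (adjusted p 0.0934 to 0.124). Myo5a passed without unbound 2 (-1.01, adjusted p = 0.0267) or without IP 4 (-1.24, adjusted p = 0.0287).

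All 7 cytoplasmic dynein subunits were tested, and 3 (42.9%, beside 18.9% of all genes tested) were lower and 0 (beside 20.5%) higher in IP. The median log2 fold change was -0.44. The intermediate chains, which link the motor to dynactin, differed from each other. Dync1i1 (chr6:5725639-6028039), the neuronal form, had 9.84, 9.72 and 17.8 CPM in IP 1, 2 and 4, against 48.7, 61.6, 47.3 and 57.9 CPM in unbound 1 to 4. Dync1i2 (chr2:71211706-71263303), the form of most tissues, had 111, 113 and 102 CPM in IP 1, 2 and 4, against 114, 108, 111 and 129.7 CPM in unbound 1 to 4. The groups were apart for Dync1i1 (log2 fold change -2.11 ± 0.29, adjusted p = 0.000252) and overlapped for Dync1i2 (-0.09 ± 0.20, adjusted p = 0.751), whose estimate turned to 0.01 when scaled by library size alone. The ratio of Dync1i1 to Dync1i2 per kilobase was 0.205, 0.2 and 0.406 in IP 1, 2 and 4, against 0.99, 1.32, 0.99 and 1.04 in unbound 1 to 4. Dync2h1, the heavy chain of the dynein of intraflagellar transport, had 10.6, 14.6 and 15.5 CPM in IP 1, 2 and 4, against 53.2, 40.0, 45.8 and 44.4 CPM in unbound 1 to 4 (log2 fold change -1.76 ± 0.24, adjusted p = 0.000264). Dync1li2, a light intermediate chain that binds cargo adaptors, had 171, 165 and 179.9 CPM in IP 1, 2 and 4, against 285, 219.5, 312 and 357 CPM in unbound 1 to 4 (-0.77 ± 0.24, adjusted p = 0.0246). All IP libraries were below all unbound ones for both. The heavy chain Dync1h1 that drives the motor had 154, 177 and 172 CPM in IP 1, 2 and 4, against 266, 139.7, 219 and 194 CPM in unbound 1 to 4, with overlapping groups (-0.29 ± 0.25, adjusted p = 0.396), and Dync1li1 (-0.44, adjusted p = 0.157) and Dync2li1 (0.20, adjusted p = 0.631) did not pass. With 1 library left out, the adjusted p exceeded 0.05 for Dync1li2 without IP 1, IP 2, unbound 3 or unbound 4 (adjusted p 0.0639 to 0.109).

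Of 11 tested axonemal dynein heavy chains, 5 (45.5%, beside 18.9% of all genes tested) were lower in IP and 0 (beside 20.5%) higher. The median log2 fold change was -1.10. The number lower was 2 without IP 1, 1 without IP 2 and 3 without unbound 3 or IP 4. Dnah7b had 2.31, 1.5 and 2.75 CPM in IP 1, 2 and 4, against 14.4, 9.04, 12.8 and 12.2 CPM in unbound 1 to 4. Dnah7a, its close copy, had 1.6, 1.73 and 1.14 CPM in IP 1, 2 and 4, against 2.82, 10.2, 3.89 and 3.14 CPM in unbound 1 to 4. Both are inner-arm chains that set the shape of the ciliary beat, every IP library was below every unbound one, and reads may be shared between the copies. The log2 fold changes were -2.47 ± 0.36, adjusted p = 0.000364 for Dnah7b and -1.75 ± 0.55, adjusted p = 0.0281 for Dnah7a. Dnah9, an outer-arm chain that powers the beat, had 3.11, 1.05 and 2.91 CPM in IP 1, 2 and 4, against 5.25, 10.8, 9.15 and 6.55 CPM in unbound 1 to 4 (-1.75 ± 0.47, adjusted p = 0.0131). The inner-arm chain Dnah1 had 3.99, 6.08 and 4.48 CPM in IP 1, 2 and 4, against 9.34, 8.23, 9.95 and 8.6 CPM in unbound 1 to 4 (-0.90 ± 0.31, adjusted p = 0.0386). Dnah17, named after its values were seen, had 2, 2 and 0 reads in IP 1, 2 and 4, at or under the 3-read floor, and 36, 14, 48 and 14 reads in unbound 1 to 4 (adjusted p = 0.0183). Dnah6 lay the other way, with 5.46, 3.8 and 2.89 CPM in IP 1, 2 and 4, against 2.19, 0.0344, 0.816 and 1.96 CPM in unbound 1 to 4 and no overlap, but it missed the threshold (1.69 ± 0.88, adjusted p = 0.152). Dnah2, Dnah5, Dnah8, Dnah10 and Dnah11 did not pass, with log2 fold changes of 0.78, -0.22, 0.12, -1.10 and -1.96. Of these, Dnah11 had every IP library (0 to 1.06 CPM) below every unbound one (1.14 to 2.54 CPM). The call did not hold for Dnah7a without IP 1, IP 2, IP 4 or unbound 2 (adjusted p 0.0748 to 0.084), Dnah9 without IP 2 (adjusted p 0.0517), Dnah1 without IP 1, IP 2, IP 4, unbound 3 or unbound 4 (adjusted p 0.0585 to 0.156) and Dnah17 without IP 1, IP 2, IP 4 or unbound 3 (adjusted p 0.0517 to 0.0701). Without unbound 2 the Dnah7a estimate was -1.14.

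Beside these lower chains, 6 of 12 ependymal markers were higher in IP and 0 lower, with sums of 75.0 to 125 CPM in IP and 36.0 to 61.4 CPM in unbound. The part of ependymal cells in the dynein values was not tested. Genes that assemble or regulate motile cilia were described by a list of 38, all tested, of which 6 were higher and 1 lower, with a median of 0.30. Among all genes tested 20.5% were higher and 18.9% lower, so the number higher on the list was not above the background. The dynein intermediate chain Dnaic1 averaged 14.7 ± 1.45 CPM in IP and 4.72 ± 1.61 CPM in unbound (SD, n = 3 and 4; log2 fold change 1.64 ± 0.33, adjusted p = 0.00315). Rfx2, a transcription factor of ciliary genes, had 10.3, 10.9 and 15.7 CPM in IP 1, 2 and 4, against 3.1, 0.996, 1.54 and 2.08 CPM in unbound 1 to 4 (2.67 ± 0.42, adjusted p = 0.000674). Ccdc39, a ruler of the axoneme's repeat, had 2.31, 4.06 and 4.8 CPM in IP 1, 2 and 4, against 6.4, 10.8, 8.98 and 7.89 CPM in unbound 1 to 4 (-1.19 ± 0.37, adjusted p = 0.0258). Foxj1, the switch for motile cilia, averaged 30.6 ± 3.81 CPM in IP and 26.1 ± 5.19 CPM in unbound and did not pass (0.23, adjusted p = 0.474). Dnali1, Dnaaf5, Rsph1 and Pifo were the other members that rose; Rsph1, Pifo, Foxj1 and Tekt1 stand on the ependymal list too. The threshold was missed for Ccdc39 without IP 1, IP 2 or unbound 3 (adjusted p 0.0592 to 0.115).

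The light chains and adaptors of kinesins were mostly lower: of 28 tested, 16 were lower in IP and 1 higher, with a median of -0.96, beside 18.9% lower and 20.5% higher among all genes tested. All 12 pan-neuronal markers were lower too, with a median of -1.75 and the sums given above, and their part in the list was not tested. Mapk8ip2, a JNK scaffold that binds kinesin light chains, had 14.9, 18.4 and 21.2 CPM in IP 1, 2 and 4, against 130.2, 113, 133 and 89.2 CPM in unbound 1 to 4 (-2.68 ± 0.25, adjusted p = 2.04e-05). The kinesin light chains Klc1 and Klc2 were lower (-1.36 ± 0.25, adjusted p = 0.00162; -1.70 ± 0.30, adjusted p = 0.00131), as was Kifap3, the non-motor subunit of the Kif3 complex (-1.04 ± 0.24, adjusted p = 0.00555). Fez2, a kinesin adaptor, was the 1 that rose, with 149, 142 and 82.1 CPM in IP 1, 2 and 4, against 52.2, 56.0, 59.8 and 49.2 CPM in unbound 1 to 4 (1.20 ± 0.25, adjusted p = 0.00332), while its neuronal paralog Fez1 fell (-2.09 ± 0.27, adjusted p = 0.000198). The mitochondrial adaptors Trak1 and Trak2 did not pass (0.59, adjusted p = 0.0885; 0.47, adjusted p = 0.137).

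Of 35 tested cytoplasmic dynein partners, 6 were higher and 7 lower, with a median of -0.07, near the shares of all genes tested (20.5% higher and 18.9% lower). Without IP 1, 3 were higher and 3 lower, and without IP 2, 3 were higher and 2 lower. The light chain Dynlrb2, also on the ependymal list, had 7.96, 6.24 and 3.03 CPM in IP 1, 2 and 4, against 0.777, 2.47, 0.873 and 1.06 CPM in unbound 1 to 4 (2.15 ± 0.55, adjusted p = 0.0105), and the adaptor Hook1 had 4.19, 4.76 and 9.2 CPM in IP 1, 2 and 4, against 16.7, 12.5, 15.6 and 19.1 CPM in unbound 1 to 4 (-1.40 ± 0.35, adjusted p = 0.00885). The adaptor paralogs Bicd2 and Bicd1 moved apart (1.31 ± 0.26, adjusted p = 0.00301; -1.30 ± 0.40, adjusted p = 0.0237), and the dynein regulator Nde1 rose (1.68 ± 0.26, adjusted p = 0.00064) while Ndel1 did not pass (-0.47, adjusted p = 0.11). With 1 library left out, the adjusted p exceeded 0.05 for Dynlrb2 without IP 1 (adjusted p 0.0615) and Hook1 without IP 2 (adjusted p 0.0517).

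Myosin light chains, their kinases and actin-binding partners showed 18 of 31 tested higher and 3 lower, with a median of 1.19, beside 20.5% higher and 18.9% lower among all genes tested. The regulatory light chain Myl9, which is also on the mural marker list, had 1058, 1038 and 738 CPM in IP 1, 2 and 4, against 4.7, 4.4, 4.38 and 5.52 CPM in unbound 1 to 4 (7.63 ± 0.30, adjusted p = 3.43e-07). Mylk, the kinase that activates nonmuscle and smooth muscle myosin II, averaged 316 ± 49.4 CPM in IP and 15.3 ± 1.82 CPM in unbound (4.36 ± 0.24, adjusted p = 1.15e-06), and Myl12a averaged 266 ± 93.9 CPM in IP and 16.9 ± 5.36 CPM in unbound (3.97 ± 0.34, adjusted p = 1.09e-05). All 4 tropomyosins rose, with Tpm4 highest (3.71 ± 0.30, adjusted p = 7.15e-06). Those that fell were the calmodulin genes Calm2 (-1.05 ± 0.28, adjusted p = 0.0128) and Calm3 (-1.54 ± 0.28, adjusted p = 0.00155), which serve as light chains of unconventional myosins among many other roles, and the light chain Myl6b. Myl6b had 35.8, 29.0 and 51.2 CPM in IP 1, 2 and 4, against 132, 235, 147 and 142 CPM in unbound 1 to 4 (-2.08 ± 0.30, adjusted p = 0.000403). Mural markers rose alongside in all 12 cases, and their part in the list was not tested.

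**Figure D3:**
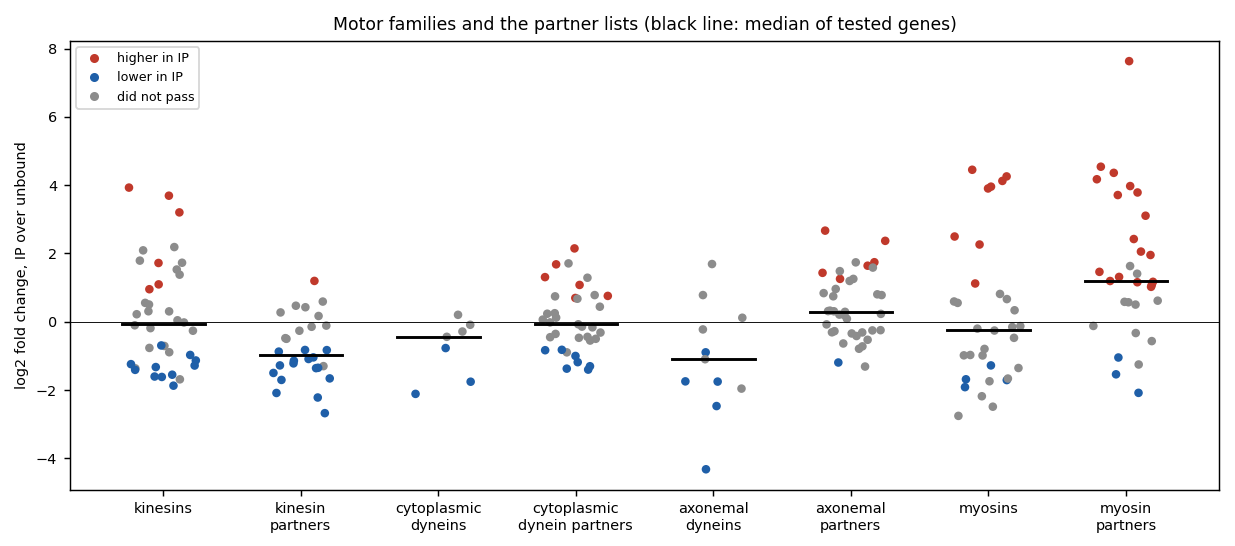
Log2 fold change, IP over unbound, of each tested gene in the 4 motor families and their partner lists (points, spread sideways for legibility, with a black line at the median). Partner medians run from -0.96 for kinesin partners to 1.19 for myosin partners, and the axonemal partners lie at 0.30 beside -1.10 for the axonemal dyneins.

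The makeup of the motor pool was compared as each class's share of the summed CPM per kilobase of exon. Kinesins made up 58.8% ± 4.31 of the pool in IP and 74.0% ± 0.972 in unbound, and myosins 28.5% ± 2.82 in IP and 12.2% ± 1.58 in unbound (SD, n = 3 and 4). Class I myosins alone took 14.9, 14.2 and 8.42% in IP 1, 2 and 4, against a mean of 1.16% ± 0.224 in unbound. The kinesin-1 share was 22.2% ± 0.998 in IP and 32.5% ± 1.52 in unbound. Cytoplasmic dynein, at 12.5% ± 1.43 in IP and 13.4% ± 1.83 in unbound, differed by less than the SD of either group, and axonemal dyneins were under 1% in both (0.259% ± 0.0609 and 0.349% ± 0.095). For the kinesin, myosin, class I and kinesin-1 shares the groups did not overlap. The summed level was 506, 541 and 690 CPM per kilobase in IP 1, 2 and 4, against 909, 586, 912 and 971 in unbound 1 to 4, so that unbound 2 lay within the IP range.

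**Figure D4:**
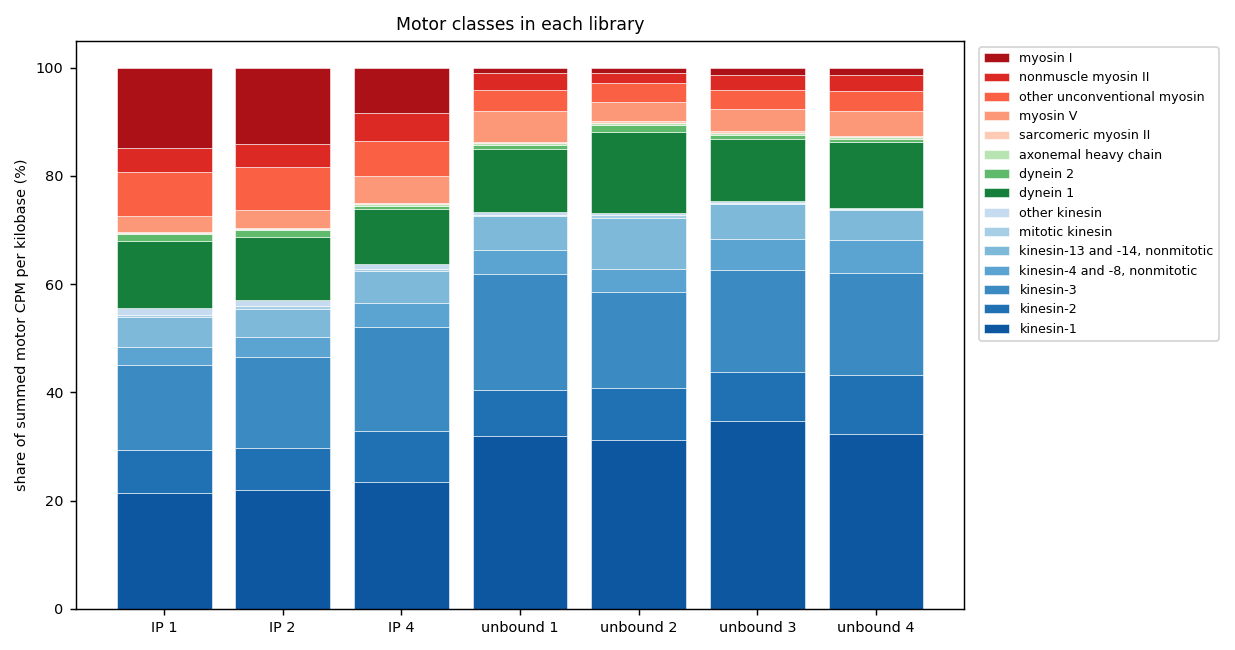
Share of each motor class in the summed motor CPM per kilobase, as stacked bars that start at 0 and reach 100% in each of the 7 libraries, IP left of unbound. The dark red myosin I block spans 8.42 to 14.9% in IP and averages 1.16% in unbound, and the dark blue kinesin-1 block is smaller in each IP library.

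Kif5a was the most abundant motor per kilobase in both groups, at 70.7 ± 12.1 CPM per kilobase in IP and 167 ± 33.5 in unbound, followed by Kif1a at 41.5 ± 18.7 and 104 ± 26.8. The third place was held by Kif5b in IP (33.8 ± 3.77) and by Kif5c in unbound (75.8 ± 21.6). Myo1c was at rank 9 of 100 in IP and 39 in unbound, and Myh9 at 14 and 43. These ranks use the union of all annotated exons as the length, so a gene expressed from a short isoform is placed too low. Across the 88 tested motors the log2 fold change was little related to exon length (Spearman rho = -0.13) or gene span (-0.18), given as a description over genes that share the same 7 libraries.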

How the data were processed

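RNA sequencing libraries of mouse midbrain were compared, 3 IP against 4 unbound. The authors deposited raw read counts per gene symbol; per the submitters' processing notes, the tools were STAR 2.0.0e and HTSeq and the build mm10. Which annotation, strand setting and filters they used is not given in the sources used here, so reads of overlapping, antisense and near-identical genes may be lost or misplaced. Each file listed 32531 genes and 6 rows that name no gene, and those 6 entered neither the library sizes nor the tests. Of all reads, 16.6% ± 2.78 in IP and 12.2% ± 0.708 in unbound lay outside genes, 1.55% ± 0.107 and 9.95% ± 1.89 matched more than 1 gene, and 36.5% ± 3.28 and 24.5% ± 7.28 aligned to more than 1 place (SD, n = 3 and 4).

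Counts were filtered with filterByExpr (17654 genes kept), scaled by TMM and tested with edgeR 4.0.16 (R 4.3.3; robust quasi-likelihood test, 2-sided, Benjamini-Hochberg at 0.05 over all genes). Fold changes are IP over unbound, and the standard error is the log2 fold change divided by the root of F. Lengths and coordinates came from GENCODE M21 (GRCm38), which matched all 100 motor genes. The motor genes, partner lists and marker lists were chosen with earlier results of these data known. Values in every library were given for the 4 highest and 4 lowest called genes of each family with a mean of at least 5 CPM (axonemal dyneins 0.5), the 2 most abundant per kilobase, split paralogs, and the extremes of each partner list; others were added for their roles. Alternatives were DESeq2 1.42.0, other scalings and filters, a replicate block, the index as a covariate or alone, and each library left out. On simulated counts of 17654 genes for this comparison, 200 of them changed, 59% of 4-fold and 6.19% of 2-fold changes were called, and 6 of 71 calls were false. In the data 39.4% of genes were called, a far larger share than was changed in the simulation. The adjustment depends on that share, so the simulated shares do not measure how the test performed on the data. Values of 1 motor gene are not reported here, although it is part of the counts and sums.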

Additional observations from a re-analysis of the deposited data

Results flagged for a closer look

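Among 49 genes examined in the 4 unbound libraries, 6 had 1 library far from the other 3. For a single gene chance alone gives about 1 in 20. The genes share the same 4 libraries, so that rate cannot be set against the 6 flagged genes. Unbound 2 stood apart in 5 of them: it was high for Dnah7a (10.2 CPM) and for the myosin light chain Myl6b (235 CPM) and the dynein light chain Dynlrb2 (2.47 CPM), and low for Kif5a (822 CPM) and Myh9 (6.75 CPM). Unbound 4 was low for Kifc2 (125 CPM). Without unbound 2 the log2 fold change of Dnah7a was -1.14 (edgeR adjusted p = 0.0748).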

How the results depend on the processing

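Of the 37 called motors, 14 kept their call in each of the 17 other settings that tested them (9 higher and 5 lower), and none changed sign. Of the 14, Myo1g was tested in 16. With every library kept, the replicate block lost 8 calls (Dnah1, Dnah7a, Dnah17, Dync1li2, Kif3c, Kif18b, Kif26b and Myo3b). Scaling by library size alone lost 5 (Dnah1, Dync1li2, Kif3a, Kif3c and Kif6), and no low-count filter lost 3 (Dnah1, Kif3c and Kif18b). DESeq2 and the index as a covariate each lost 1, Kif18b. With 1 library left out, the counts ranged as follows: all genes 2796 to 4050 higher and 1751 to 3632 lower; motors 10 to 14 and 9 to 26; kinesins 3 to 6 and 5 to 11; myosins 7 to 9 and 1 to 10; axonemal dyneins 0 higher and 1 to 5 lower; cytoplasmic dyneins 0 higher and 2 to 3 lower. For partners the ranges were 1 higher and 11 to 16 lower for kinesins, 3 to 9 and 2 to 9 for cytoplasmic dynein, 4 to 7 and 0 to 2 for axonemes, and 15 to 20 and 2 to 3 for myosins. The index ACAGTG alone, with fewer libraries, gave 2190 genes higher and 1650 lower, 9 motors lower, 3 kinesins higher and 4 lower, 2 myosins lower, 1 axonemal dynein lower, 2 cytoplasmic dynein partners higher and 3 lower, and 1 axonemal partner higher and 0 lower; GTGAAA alone gave 2 axonemal partners lower. DESeq2 called 7 myosins lower, and a filter of 5 CPM in 3 libraries left 3 axonemal dyneins lower. Leaving out IP 4 and unbound 2 together, chosen after seeing the data, gave 11 myosins lower, 10 cytoplasmic dynein partners higher and 2 axonemal partners lower. Deviations of same-numbered libraries correlated at -0.0271, 0.0423 and 0.158 for IP 1, 2 and 4, and those of other pairs at -0.191 to 0.199. For IP 2 and IP 4, but not for IP 1, the same-numbered unbound library gave the highest value. With so few libraries these values cannot show or exclude pairing, and the main test left the libraries unpaired. With the replicate block, 14 motors were higher and 17 lower, and 3154 genes were higher and 2618 lower. In that setting 2 axonemal dyneins and 0 axonemal partners were lower. Dync1i2 changed sign to 0.0117 when scaled by library size only, which shifts the median of all genes by 0.10, and to 0.0155 in the index ACAGTG alone. The causes of these differences between settings were not tested.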
